A study of Bos taurus with 8 samples.

Results

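The miRNAs described here are bta-miR-25, bta-miR-92a, bta-miR-92b and bta-miR-363, which belong to the bovine miR-25 and miR-92 seed family. Sums and shares of the family below cover these 4 only, without miR-32 and miR-367, which share the seed. The members were taken by name from the deposited table, and all 4 names were found among its 1028 miRNAs. The table holds follicular fluid extracellular vesicle (FF-EV) miRNAs of cycling, non-pregnant crossbred beef cows (Bos taurus), collected by ovum pick-up in summer (SUM, 4 libraries) and in winter (WIN, 4 libraries). All cows of both seasons had received a progesterone device, a GnRH analog and FSH injections before the pick-up, and each library came from the pooled fluid of a pair of cows. Season was the only difference the labels give between the groups, so ambient heat cannot be told apart from anything else that changed between the 2 collections. By the study's methods the same herd of cows was used in both seasons, but neither they nor the labels say which pools share animals, and no age is given. The pools were therefore compared as unpaired, and p-values measure the spread between pools that are not fully independent across seasons.

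A miRNA guides a silencing complex to mRNAs through its seed, the bases 2 to 8 from its 5′ end, and miRNAs with one seed can pair with many of the same target sites. The miR-25 and miR-92 family shares such a seed. In mammals its members are known for lowering the pro-apoptotic protein BCL2L11, and miR-92a is known in mice as a brake on vessel growth. Mature miR-92a and miR-25 are also abundant in blood cells and plasma.

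The genes of the members lie in several clusters, of which miR-92a and miR-363 share 1. In the RefSeq annotation of ARS-UCD2.0, which is a later assembly than the authors' and was used only for names and neighbours, MIR25 lies inside MCM7, a gene of DNA replication, next to MIR106B and MIR93. Mature miR-92a has 2 genes. MIR92A-1 closes the miR-17-92 cluster with MIR17, MIR18A, MIR19A, MIR20A and MIR19B. MIR92A-2 lies in the miR-106a-363 cluster beside MIR363, MIR19B-2, MIR20B, MIR18B and MIR106A. Reads of miR-92a from these 2 genes cannot be told apart. MIR92B had no other miRNA gene within 10 kb. Mature miR-92a and miR-92b are close relatives, and their values are uncertain where the counting could split reads between them.

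The 8 libraries held 214004 to 1689467 miRNA reads, with the fewest in SUM replicate 3 and WIN replicate 1 (235340). A level is given as CPM, the reads of a miRNA scaled to a common library total and adjusted by the authors with TMM, and 1 read was worth 0.567 to 4.02 CPM. All 3 listed markers of granulosa cells, which line the follicle, were detected, and their summed level was 6416 to 13372 CPM in SUM and 3955 to 6627 CPM in WIN. For red blood cells the 3 listed markers summed to 5262 to 12731 CPM in SUM and 2439 to 25918 CPM in WIN. For white blood cells the 4 listed markers summed to 418 to 751 CPM in SUM and 207 to 328 CPM in WIN. The 2 endothelial markers summed to 1065 to 2418 CPM in SUM and 2290 to 3595 CPM in WIN. No marker was at 0 in every library.

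The family held 1.53% ± 0.37 of the summed CPM in SUM and 1.23% ± 0.28 in WIN (SD, 4 libraries each), and it had the same order of levels in every library. miR-25 was the most abundant member, at a mean of 8687 CPM over the 8 libraries, followed by miR-92a at 4794 CPM, miR-92b at 639 CPM and miR-363 at 18.7 CPM. Mature miRNAs are of similar length, but adapter ligation can favour some sequences, so ratios between members are ratios of reads. miR-25 exceeded miR-92a in 8 of 8 libraries, by 1.02 to 3.23 times. miR-92a exceeded miR-92b in 8 of 8 libraries by 4.67 to 14.6 times, and miR-92b exceeded miR-363 by 8.02 to 352 times. For each of the 3 neighbouring pairs the exact sign-flip permutation test gave p = 0.0078, the smallest that 8 libraries allow, and 0.0078 again after adjustment over the 3 pairs. The pairs were ordered by the mean CPM of these same libraries, whose pools are not fully independent, so the p-values only describe how steady that order was. In WIN replicates 1 and 2 the levels of miR-25 and miR-92a were nearly equal, at ratios of 1.02 in both, and their 95% counting intervals overlapped.

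**Figure D1:**
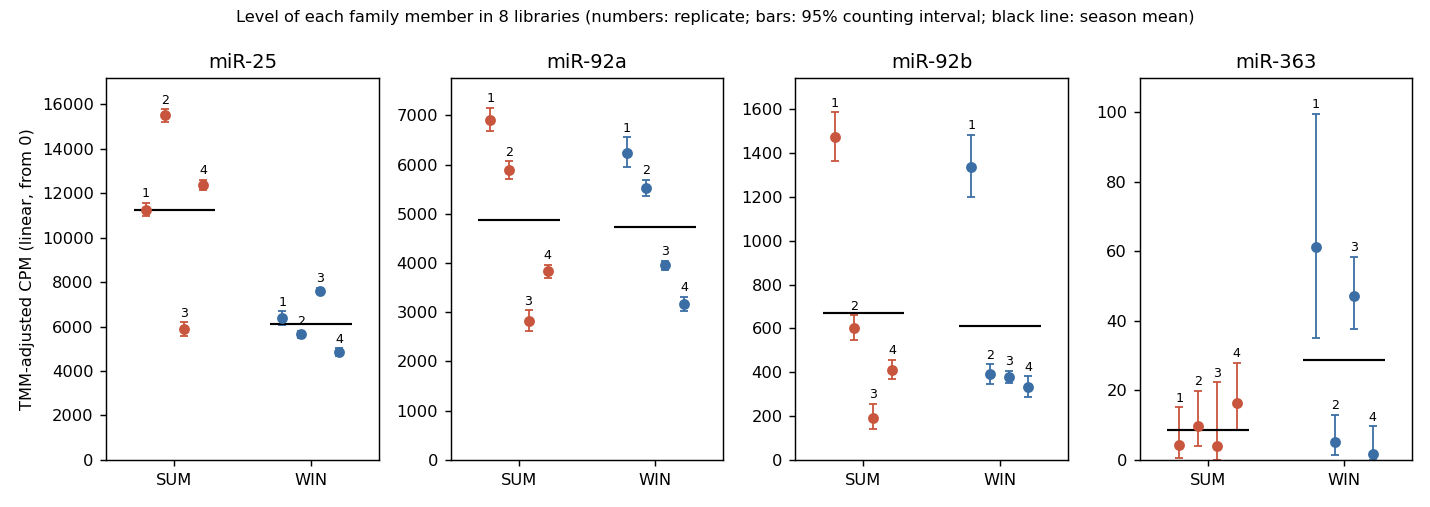
TMM-adjusted CPM (linear axis from 0, with its own scale in each panel) of the 4 members in the 4 SUM and 4 WIN libraries, with replicate numbers, 95% Poisson counting intervals and the season mean as a black line. SUM replicate 3 lies among the WIN libraries for miR-25, and replicate 1 of each season stands above the other 3 for miR-92b.

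All 4 members passed the filter on low values (a mean above 10 CPM), as did 243 miRNAs in all, and 0 of the 4 were called between seasons by limma, where a call asked for a fold change over 1.5 at an adjusted p below 0.1. Of all those tested, 5.35% were called higher in SUM, 2.47% lower and 7.82% in either direction. These shares stand for 13 higher and 6 lower miRNAs. When every library was given the same summed CPM the split became 11 higher and 22 lower, and the median log2 difference over all tested moved from 0.02 to -0.17. At an unadjusted p below 0.05 limma named 1 of the 4 members, miR-25, where the same limit named 22.2% of all tested miRNAs (12.3% higher in SUM), so 1 of 4 is near the background. The tests of edgeR, DESeq2 and voom, run on the whole reads behind the CPM, each called miR-25 higher. The paper's own list of differentially expressed miRNAs, at the same limits on fold change and adjusted p, does not name miR-25. The seasons overlapped for each of the 4 members, whereas 8.23% of all tested miRNAs were higher in SUM without overlap, 7.82% lower, and 16.0% either way.

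miR-25, the member whose gene lies inside MCM7, had a fitted SUM level 1.76 times its WIN level on the log2(CPM + 1) scale, without passing the threshold on the adjusted p. The SUM libraries held 11258, 15495, 5893 and 12361 CPM (replicates 1 to 4). The WIN libraries held 6387, 5651, 7613 and 4841 CPM. SUM replicates 1, 2 and 4 lay above every WIN library, and SUM replicate 3 lay between WIN replicates 2 and 1, so the seasons overlapped through that library alone. The means were 11252 ± 3998 CPM and 6123 ± 1177 CPM (SD), with an exact permutation p of 0.0857, two-sided as in all tests here. The fitted log2 difference of 0.81 had an SE of 0.30 and a 95% interval of 0.15 to 1.48 (unadjusted p = 0.0211, adjusted p = 0.147 by limma). In rank, miR-25 was between the 14th and 22nd most abundant miRNA in the SUM libraries and between the 21st and 25th in the WIN libraries.

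Whether miR-25 passed the thresholds depended on the test, on the scaling and on the libraries included. Limma on all libraries called miR-25 after scaling by DESeq2 size factors (0.78, adjusted p = 0.0740, with 8.23% of miRNAs called higher). At equal summed CPM limma did not call it (0.63, adjusted p = 0.124). On the recovered reads it was higher by 0.82 on the log2 scale with edgeR (adjusted p = 0.0823, with 8.23% of the tested miRNAs called higher), 0.81 with DESeq2 (adjusted p = 0.0558, 9.47% higher) and 0.80 with voom (adjusted p = 0.0670, 8.23% higher). Without SUM replicate 3, the library with the fewest miRNA reads, the limma difference was 1.10 (adjusted p = 0.0298, with 9.50% of miRNAs called higher), and without the 2 shallowest libraries it was 1.12 (adjusted p = 0.0291, with 9.96% called higher). No other single omission gave a call by limma. The edgeR call held without SUM replicate 3 (adjusted p = 0.0506, with 7.85% called higher) and was lost when any library other than SUM replicate 3 was left out (adjusted p from 0.101 to 0.274), while the log2 difference stayed at 0.58 to 0.85. Calls over all miRNAs also fell in these fits, from 20 higher with edgeR on all libraries to 0 without SUM replicate 2 or WIN replicate 2, 2 without WIN replicate 4, 3 without SUM replicate 4 or WIN replicate 3, 12 without SUM replicate 1 and 17 without WIN replicate 1. The difference was positive under all 30 alternatives, and 7 of them passed the thresholds. Of the 4 white blood cell markers 2 were tested and 1 was called higher in SUM, miR-142-5p, at 362 to 693 CPM in SUM and 174 to 296 CPM in WIN (adjusted p = 0.0621 by limma), and it made up most of their sum. miR-150 was not called (adjusted p = 0.529 by limma), miR-223 was at 3.47 to 16.5 CPM over all libraries, and miR-142-3p was at most 6.89 CPM in SUM and at least 7.60 CPM in WIN. Granulosa cell markers had a median sum of 8349 CPM in SUM and 5109 CPM in WIN, with 0 of the 2 tested called. Most of it was miR-202, at 5628 to 11850.5 CPM in SUM and 3086 to 5539 CPM in WIN (log2 difference 0.87, adjusted p = 0.115 by limma). Its seasons did not overlap, as for 8.23% of all tested miRNAs in that direction. miR-224 had a log2 difference of 0.36 (adjusted p = 0.544 by limma), and miR-383 was at most 18.8 CPM. Of the 2 endothelial markers miR-126-3p was called lower in SUM (log2 difference -1.02, adjusted p = 0.0936 by limma) and miR-126-5p was not called (0.12, adjusted p = 0.895). The part of these markers' cells in the level of miR-25 was not tested. In such pooled vesicles, more vesicles from a cell type and more miRNA per vesicle cannot be told apart.

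miR-92a, which both miR-17-92 type clusters encode, had nearly the same mean in the 2 seasons while differing up to 2.45 times between libraries of a season. The SUM libraries held 6915, 5891, 2824 and 3831 CPM and the WIN libraries 6245, 5525, 3957 and 3170 CPM. In both seasons replicate 1 was highest, replicate 2 came next, and replicates 3 and 4 were lower, so the ranges lay over each other almost completely. Mean levels of 4865 ± 1870 CPM (SUM) and 4724 ± 1409 CPM (WIN, SD) gave an exact permutation p of 0.886. The log2 difference was 0.01 (SE 0.33, adjusted p = 0.993 by limma), or -0.18 with the same summed CPM in each library and 0.39 without the 2 shallowest. Its 95% interval ran from -0.72 to 0.73, so a change of moderate size in either direction was within the error.

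miR-92b, which has no miRNA gene beside it, differed more between libraries of a season than between the season means. SUM replicate 1 held 1473 CPM and WIN replicate 1 held 1336 CPM, while the other 6 libraries held 193 to 602 CPM. In SUM the remaining values were 602, 193 and 411 CPM (replicates 2 to 4), and in WIN they were 390, 378 and 331 CPM. Replicate 1 was thus the highest of its season in both groups, although the labels do not say that equal numbers mark the same cows. The counting intervals of these 2 libraries, 1366 to 1586 CPM and 1200 to 1484 CPM, lay far above those of all others. The season means were 670 ± 561 CPM and 609 ± 486 CPM (SD, exact permutation p = 0.743), and the log2 difference was 0.03 (SE 0.60, 95% interval -1.28 to 1.34, adjusted p = 0.985 by limma). It was -0.16 with the same summed CPM in each library, -0.48 without SUM replicate 1, 0.49 without WIN replicate 1, 0.50 without SUM replicate 3 and -0.01 without both libraries numbered 1. Without the 2 shallowest libraries, the lowest SUM and the highest WIN value, it was 0.96 (adjusted p = 0.159 by limma).

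miR-363, the partner of miR-92a in the miR-106a-363 cluster, was near the limit of detection in most libraries and clearly above it in a few. It was counted with 2, 7, 1 and 13 reads in the SUM libraries and with 16, 4, 83 and 1 reads in the WIN libraries. These reads correspond to 4.18, 9.64, 4.02 and 16.3 CPM in SUM and to 61.3, 5.07, 47.1 and 1.73 CPM in WIN. WIN replicates 1 and 3 stood above all other libraries, with 95% Poisson intervals of 35.0 to 99.5 CPM and 37.5 to 58.4 CPM, and the other 2 WIN libraries were as low as the SUM libraries. The highest SUM library, replicate 4, had an interval of 8.69 to 27.9 CPM. Season means of 8.54 ± 5.81 CPM (SUM) and 28.8 ± 29.9 CPM (WIN, SD) gave an exact permutation p of 0.371, and the log2 difference of -0.84 had an SE of 1.04 and a 95% interval of -3.11 to 1.43 (adjusted p = 0.662 by limma). On the whole reads the difference was -1.59 with edgeR (adjusted p = 0.315) and -1.74 with DESeq2 (adjusted p = 0.223), and -2.24 to -1.11 with edgeR when 1 library was left out (adjusted p from 0.178 to 0.541). Its SUM mean was under the 10 CPM asked of the overall mean, so it entered the test through the WIN libraries. With limma the difference was -0.16 without WIN replicate 1, -0.28 without WIN replicate 3, -1.66 without WIN replicate 4 and 0.09 without the 2 shallowest libraries.

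The season means of the members' shares in the family were furthest apart for miR-25 and miR-92a. Shares add up to a whole, so a higher share of miR-25 and a lower share of miR-92a are not separate results. miR-25 made up 67.1% ± 7.33 of the summed CPM of the 4 members in SUM (57.3 to 74.4%) and 54.0% ± 8.25 in WIN (45.5 to 63.5%). miR-92a made up 29.2% ± 5.34 in SUM and 40.8% ± 6.61 in WIN, and the 2 ranges overlapped for both miRNAs. miR-92b made up 2.17 to 7.50% in SUM and 3.15 to 9.53% in WIN, and miR-363 stayed under 0.5% everywhere, with a highest share of 0.437% in WIN replicate 1. As sums over the chosen members these shares carry no test. Added up, the members reached 16795 ± 5696 CPM in summer and 11485 ± 2353 CPM in winter (SD), and the means of miR-25 alone differed by 5129 CPM. The gap of 5310 CPM in the sum was 3018 CPM with the same summed CPM in each library, 7937 CPM without SUM replicate 3 and 3576 CPM without SUM replicate 2. The gap of 0.300 percentage points in the share of all CPM ran from 0.177 without WIN replicate 4 to 0.464 without SUM replicate 3.

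Ratios of CPM within a library do not depend on how the libraries were scaled. The log2 ratios tested were of CPM + 1, so those with the low miR-363 depend somewhat on scaling and pseudocount. For miR-25 over miR-363 the exact permutation p of 0.229 was 0.257 with a pseudocount of 0.5 and 0.114 with 5. The ratio of miR-25 to miR-92a was 1.63, 2.63, 2.09 and 3.23 in the SUM libraries and 1.02, 1.02, 1.92 and 1.53 in the WIN libraries. All SUM libraries but replicate 1 lay above every WIN library. The mean log2 ratio was 1.21 ± 0.43 in SUM and 0.40 ± 0.45 in WIN, a gap of 0.81 (exact permutation p = 0.0571, or 0.343 adjusted over the 6 pairs of members). The smallest p that 4 libraries against 4 allow is 0.0286. The ratio of miR-92a to miR-92b had a mean log2 value of 3.15 ± 0.68 in SUM and 3.17 ± 0.68 in WIN (exact permutation p = 0.943), and replicate 1 had the lowest ratio in both seasons, at 4.69 and 4.67. For the other 4 pairs the exact p was 0.229 to 0.543 before adjustment and 0.629 to 0.651 after it.

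**Figure D2:**
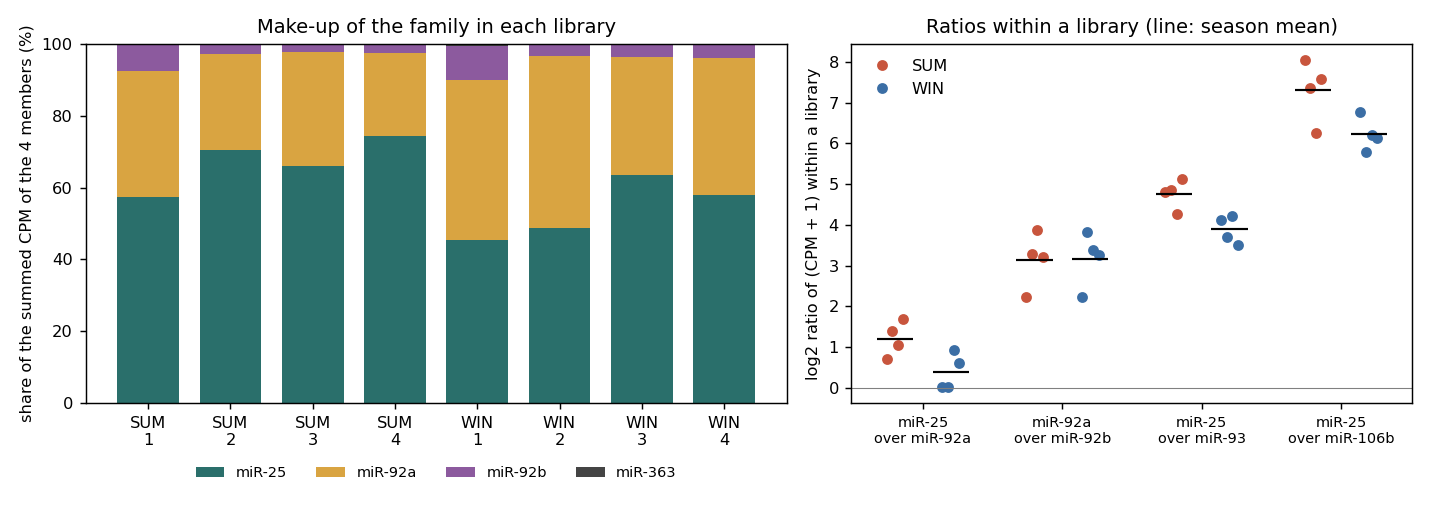
Left, the share of each member in the summed CPM of the family (percent) in each library. Right, log2 ratios of CPM + 1 within each library for 4 pairs of miRNAs, with the season mean as a black line. miR-25 takes 57.3 to 74.4% in SUM and 45.5 to 63.5% in WIN, and the 4 SUM points of its ratio to miR-93 all lie above the 4 WIN points. The ratios to miR-93 and miR-106b were chosen after the values of miR-25 had been seen.

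The 2 miRNAs whose genes lie beside MIR25 had similar means in the seasons. For miR-93, which acts through the miR-17 seed, the means were 399 ± 100 CPM (SUM) and 406 ± 27.8 CPM (WIN, SD), a log2 difference of -0.06 (SE 0.25, adjusted p = 0.929 by limma) that was 0.06 without SUM replicate 3. miR-106b, of the same seed group, had 69.0 ± 21.8 CPM and 82.1 ± 23.0 CPM, a difference of -0.26 (SE 0.34, adjusted p = 0.685 by limma). The miR-25 to miR-93 ratio was 28.2, 28.8, 19.3 and 35.2 in the SUM libraries and 17.4, 13.1, 18.7 and 11.5 in the WIN libraries, without overlap even in SUM replicate 3. Its mean log2 value differed by 0.87 (exact permutation p = 0.0286, the smallest possible). How many of the other tested miRNAs would give a ratio to miR-25 without overlap was not computed. The miR-25 to miR-106b ratio was 77.1 to 269 in SUM and 55.8 to 111 in WIN, a log2 gap of 1.08 (exact permutation p = 0.0571). These 2 ratios were chosen after the values of miR-25 had been seen, share that miRNA with the comparison above, and each had an adjusted p of 0.152 over all 8 ratios computed (exact permutation tests).

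Of the 13 cluster and seed relatives of the family, 10 were detected and 7 entered the test. By limma 2 of the 7 were higher, where 5.35% of all tested were, none was lower and 5 did not pass, and their median log2 difference was -0.06 against 0.02 over all tested miRNAs. The relatives were listed with earlier results of these data known, so their count is a description. The 2 called were miR-19a (88.3 ± 22.2 CPM in SUM, 37.7 ± 9.67 CPM in WIN) and miR-19b (88.1 ± 15.0 and 26.7 ± 4.51 CPM), which stand beside miR-92a in the miR-17-92 cluster but carry another seed. Their log2 differences were 1.21 (adjusted p = 0.0690) and 1.69 (adjusted p = 0.0357) by limma. miR-92a, from the same cluster, was at 0.01, and miR-17-5p and miR-20a were at -0.04 and -0.09 (adjusted p = 0.952 and 0.891 by limma). The call of miR-19a was lost without SUM replicate 2, SUM replicate 4 or WIN replicate 2, 3 or 4, and that of miR-19b without WIN replicate 4. The log2 differences stayed at 1.04 to 1.33 for miR-19a and 1.58 to 1.79 for miR-19b when 1 library was left out, and the omissions that ended a call left 0 to 2 higher calls over all miRNAs in place of 13. With all 545 detected miRNAs tested, miR-19a was not called either (adjusted p = 0.223 by limma). Among miRNAs with the family's seed that are not members, miR-32 averaged 114 ± 36.3 CPM (SUM) and 124 ± 23.4 CPM (WIN), a log2 difference of -0.15 (SE 0.30, adjusted p = 0.810 by limma). miR-367, known from embryonic stem cells, was at 0 in all 8 libraries, which allows up to 1.70 to 12.1 CPM per library at 3 reads. Of the miRNAs that only the miR-106a-363 cluster encodes, miR-106a was detected in 1 library at 1.26 CPM, miR-20b was at no more than 12.6 CPM and miR-18b was at 0 in all 8 libraries. The other partners of miR-363, miR-92a and miR-19b, are also encoded in the miR-17-92 cluster.

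**Figure D3:**
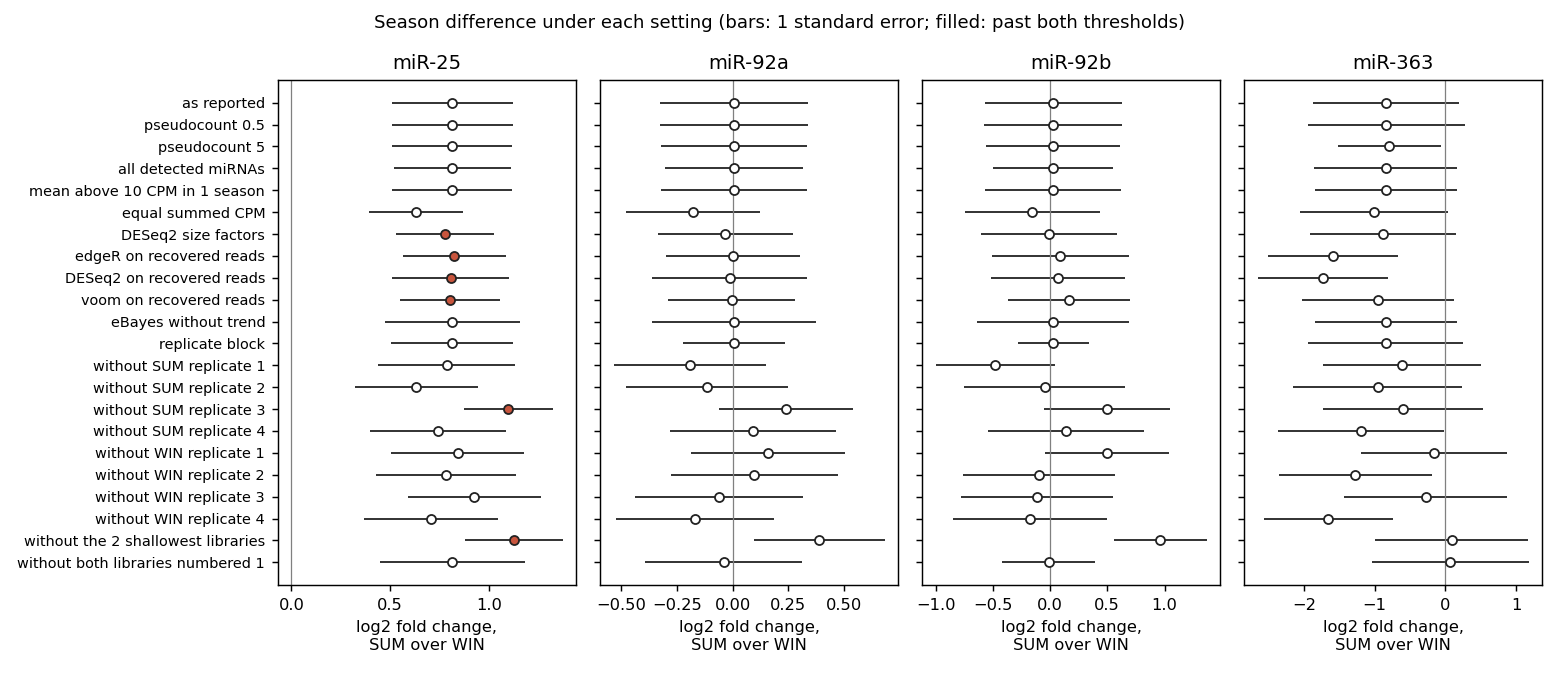
Log2 difference of SUM over WIN (horizontal axis, each panel with its own range) for the 4 members with all libraries and under 21 alternatives, with bars of 1 standard error. Filled points passed both thresholds. These are 6 points of miR-25, while the points of miR-92a and miR-92b lie on both sides of 0. The edgeR fits with 1 library left out and the stricter threshold are not drawn.

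The members differed in how much they varied among pools of the same season. The SD of log2(CPM + 1) within season was 0.47 for miR-25, 0.52 for miR-92a, 1.09 for miR-92b and 1.68 for miR-363, and the median over the 243 tested miRNAs was 0.52. miR-92b thus varied more than 82.3% of tested miRNAs and miR-363 more than 97.5%. Counting error alone would give SDs of 0.02, 0.03, 0.10 and 0.68, small beside the spread of the first 3 members and closer to that of miR-363. For miR-363 the counting SD was 0.77 beside a spread of 0.86 in SUM, and 0.58 beside 2.22 in WIN. It is a rough approximation where reads are very few. The spread of miR-25 was 0.60 in SUM and 0.28 in WIN, a difference that was not tested.

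**Figure D4:**
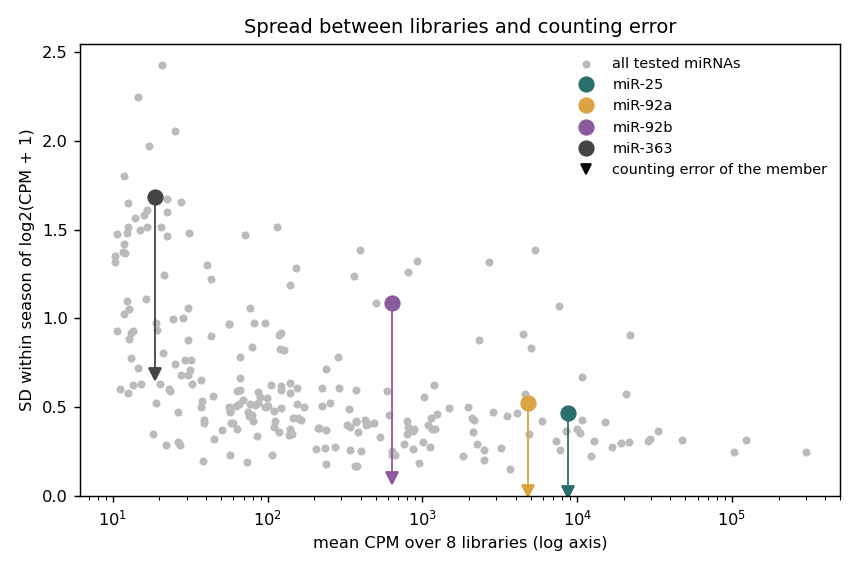
Pooled within-season SD of log2(CPM + 1) against mean CPM (log axis) for the 243 tested miRNAs (grey), with the members in colour and triangles for the SD that counting error alone gives each of them. miR-92b lies well above most miRNAs of its abundance, with an SD of 1.09 and a counting error of 0.10.

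Each member had its own closest miRNA in profile, measured as the root mean square (RMS) difference between log2(CPM + 1) values over the 8 libraries after subtracting each miRNA's mean. All profiles share the libraries, their depth and their scaling, and 239 other miRNAs were compared. miR-92b was followed most closely by miR-125a, at an RMS difference of 0.15 where the median over the 239 was 1.10. miR-125a held 17878, 7334, 2229 and 4543 CPM in the SUM libraries and 14638, 5573, 4053 and 4633 CPM in the WIN libraries. It was 10.7 to 14.3 times as abundant as miR-92b in every library and had the same 2 high libraries. The next miRNA for miR-92b was miR-378d, at 0.46.

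miR-25 was followed most closely by miR-378 (RMS difference 0.18, median 0.79) and miR-296-3p (0.21). miR-378, known for its part in energy metabolism, was present at 0.822 to 1.19 times the level of miR-25 in each library. miR-92a was nearest to miR-132 (0.25) and miR-1839 (0.26), where the median was 0.70. miR-363 had no close partner, with RMS differences of 0.89 to miR-451 and 1.08 to miR-370 against a median of 1.61. miR-451, the main miRNA of red blood cells, held 18773 CPM in WIN replicate 1, where miR-363 was highest, 5742 CPM in WIN replicate 3 and 5748 CPM in SUM replicate 4, and 1031 to 4002 CPM in the other 5 libraries. The red blood cell marker miR-486 was at 7145 CPM in WIN replicate 1 and 2755 CPM in WIN replicate 3, within its range of 2217 to 8251 CPM in SUM, and miR-144 was at 0 in 4 libraries and at most 13.9 CPM elsewhere. The part of red blood cells in the level of miR-363 was not tested.

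**Figure D5:**
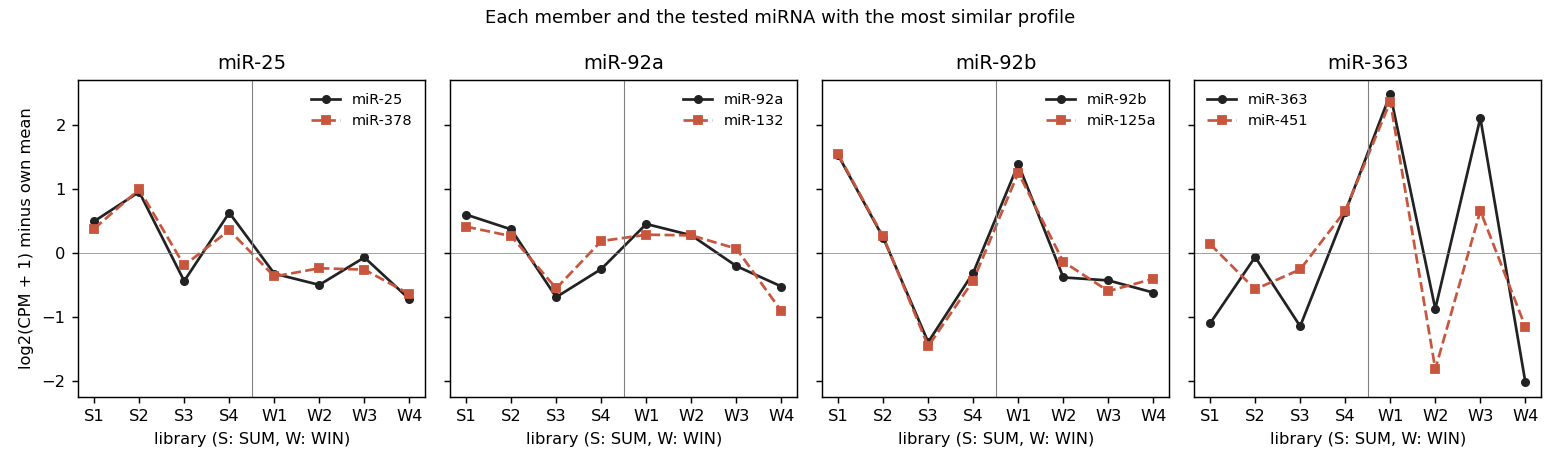
Profiles of each member (black) and of its closest tested miRNA (red) over the SUM (S) and WIN (W) libraries, as log2(CPM + 1) minus the miRNA's own mean, with lines only to guide the eye. miR-92b and miR-125a lie nearly on each other, with an RMS difference of 0.15, and miR-363 and miR-451 part in several libraries, with an RMS difference of 0.89.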

How the data were processed

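Small-RNA libraries of FF-EVs were sequenced from 4 SUM and 4 WIN pools. Using CLC Genomics Workbench, the authors trimmed and mapped the reads (ARS-UCD1.2), counted miRBase miRNAs and applied TMM. The values they deposited are a signal, TMM-adjusted CPM for each miRNA and library, and the lowest column sum is 860872. The submitters' processing notes also name bcl2fastq, Bowtie2 2.2.2 and DESeq2. Dividing the CPM of a library by its smallest value above 0, taken as 1 read, gave the reads behind each value (100% were whole within 0.001).

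For the season difference, log2(CPM + 1) values of the 243 miRNAs whose mean exceeded 10 CPM were fitted in R 4.3.3 by limma 3.58.1, using lmFit and a trended eBayes and no block. Benjamini-Hochberg adjustment ran over all 243, and calls asked for a fold change over 1.5 at an adjusted p below 0.1, following the paper's methods. The fit was also run on simulated reads of independent libraries with the same spread setting for every miRNA. That setting does not cover spreads as wide as those of miR-92b and miR-363. Levels and log2 ratios (pseudocount 1) were compared by exact two-sided permutation tests with scipy 1.17.1. Intervals of 95% on single libraries are exact Poisson intervals and cover counting error only.

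Gene neighbours were named from RefSeq (ARS-UCD2.0). Members, relatives, markers and alternatives were chosen with earlier results of these data known. The miRNAs named are the members, their cluster and seed relatives that were called or lie beside miR-25 or share its seed, and the 2 closest in profile to each member. The other relatives and markers were named after their values were seen. Alternatives were other pseudocounts, filters and scalings, count tests on recovered reads (voom, DESeq2 1.42.0, edgeR 4.0.16), a fit without trend, the replicate number as a block, a stricter threshold, and leaving out libraries. The study's qRT-PCR was not analysed here.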

Additional observations from a re-analysis of the deposited data

Results flagged for a closer look

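In WIN, the miR-92b level of replicate 1, 1336 CPM, stood apart from the other 3 libraries, since its gap to the next one covered 0.941 of the whole range. In SUM, the ratio of miR-92b to miR-363 in replicate 1, 352, stood apart in the same way (0.886 of the range), where miR-363 was counted with 2 reads. These 2 came from 30 sets of 4 libraries examined, and chance alone would give about 1 in 20.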

How the results depend on the processing

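The log2 gap in the miR-25 to miR-92a ratio was 0.65 to 0.99 when a library was left out. The order of the 4 levels holds in 8 of 8 libraries, so with 1 library left out its test could only give the smallest p possible. That was 0.0156 for each pair (exact sign-flip permutation). For miR-25 the log2 difference was 0.63 to 1.10 by limma and 0.58 to 0.98 by edgeR with 1 library left out, the latter chosen after the data were seen. It passed the thresholds with DESeq2 size factors (0.78), edgeR (0.82), DESeq2 (0.81), voom (0.80) and without the 2 shallowest libraries (1.12). By limma miR-25 did not pass at equal summed CPM (0.63, adjusted p = 0.124), with all detected miRNAs (0.81, adjusted p = 0.268) or without trend (0.81, adjusted p = 0.220). Nor did it pass without SUM replicate 2 (0.63, adjusted p = 0.325 by limma). With 1 library left out, exact permutation tests on 3 against 4 libraries cannot go below p = 0.057, so they could not reach a p below 0.05.

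The sign of the small differences changed. For miR-92a it was -0.18 at equal summed CPM, -0.032 with DESeq2 size factors, -0.013 with DESeq2, -0.0047 with voom and -0.040 without both libraries numbered 1. With 1 library left out it ran from -0.19 to 0.24 (limma) and -0.40 to 0.18 (edgeR, with -0.15 without SUM replicate 2 and -0.23 and -0.12 without WIN replicates 3 and 4). For miR-92b it was -0.16 at equal summed CPM, -0.011 with DESeq2 size factors and -0.010 without both libraries numbered 1, and ran from -0.48 to 0.50 (limma) and -0.86 to 0.82 (edgeR, with -0.087, -0.23 and -0.096 without WIN replicates 2, 3 and 4). For miR-363 it was 0.087 without the 2 shallowest libraries and 0.072 without both libraries numbered 1. The SUM minus WIN level of miR-92a was -610 CPM at equal summed CPM and -542 to 821 CPM with 1 library left out, and that of miR-92b was -50.2 CPM and -207 to 303 CPM. The log2 ratio of miR-92a to miR-92b differed by -0.34 to 0.29 between seasons with 1 library left out, and miR-93 by -0.21 to 0.059, or 0.012 without the 2 shallowest libraries. The cause was not tested.

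Counts of calls over all miRNAs, 13 higher and 6 lower, were 6 and 2 with all detected miRNAs, 11 and 22 at equal summed CPM, 20 and 15 with edgeR, voom or DESeq2 size factors, 23 and 22 with DESeq2, 24 and 11 without the 2 shallowest libraries, 7 and 4 without both libraries numbered 1, and 1 and 0 at an adjusted p below 0.05. With 1 library left out they ran from 0 to 23 and 0 to 7 by limma and from 0 to 19 and 0 to 16 by edgeR. With the replicate number as a block they were 15 and 10, and miR-25 stayed at 0.81 (adjusted p = 0.135 by limma). Same-numbered libraries deviated from their season means with correlations of -0.02, 0.30, 0.06 and 0.24 over the tested miRNAs. Differently numbered ones had correlations of -0.32 to 0.26. For replicates 2 and 4 the same-numbered library gave the highest correlation, and for replicates 1 and 3 it did not. These values do not settle whether equal numbers mark the same cows, and no pairing was assumed. The block lowered the SE of miR-92b from 0.60 to 0.31 and changed no call of a member. With 1 to 83 reads a library, miR-363 had the largest counting error of the members. That SD of 0.68 was still smaller than its within-season spread of 1.68.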
